A study of Rattus norvegicus with 12 samples.

Results

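The transcription factor Nrf2 (gene *Nfe2l2*), its cytoplasmic adaptor Keap1 and the factors that share or compete for its DNA element were followed as a set of 9 genes, *Nfe2l2*, *Nfe2l1*, *Keap1*, *Cul3*, *Bach1*, *Bach2*, *Maff*, *Mafg* and *Mafk*. Members were found by the RefSeq accession that the array files give for each probe, without its version, matched to rat gene symbols of the assembly GRCr8. By this rule 8 of the 9 genes had a probe, with 10 probes in all, out of 16581 named genes on the array. No probe matched *Nfe2l1*, so no value is given for it. All 10 probes were well above background on all 12 arrays, and the 8 genes are among 10741 named genes with a tested probe.

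The samples were L6 myotubes, a rat skeletal muscle line whose myoblasts fuse into myotubes, and the 4 groups of 3 arrays each shared this line, the DMSO vehicle and a treatment time of 24 h. The control received DMSO alone, and the other groups received 60 µM GR24, a synthetic strigolactone analog, 60 µM pinosylvin or 60 µM resveratrol. Pinosylvin and resveratrol are plant stilbenes, and resveratrol carries a hydroxyl group on the ring that pinosylvin leaves bare. The experiments were 3 independent runs on a single batch of cells, so p-values measure the spread between arrays from 1 batch of a cell line. Replicates 1 and 2 of every group shared a slide and replicate 3 had another, so that spread mixes run and slide. The labels and the methods differ by 1 day in the length of differentiation.

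As background, Keap1 is the adaptor that brings Nrf2 to a ligase built on cullin 3, which marks Nrf2 for the proteasome, and compounds that modify Keap1 cysteines let Nrf2 accumulate. Nrf2 and Nrf1 bind antioxidant response elements (AREs) as dimers with the small Maf proteins MafF, MafG and MafK, which lack an activation domain of their own. Bach1 and Bach2 pair with the same small Mafs and repress, and heme controls Bach1. Much of this regulation acts on the proteins, which were not measured here.

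Each of the 12 one-colour arrays had 58717 spots other than controls, of which 58.0% to 64.3% were well above background, and 0 spots were saturated. The number of arrays limits the precision. A level is the log2 background-subtracted signal relative to the array's 75th percentile, so 0 is the level of that percentile. Levels of different probes are not compared with each other. Differences were tested with limma over 24279 probes, those whose signal stood well above background in every array of a group or more, and a gene is called where the Benjamini-Hochberg adjusted p was under 0.05. The groups sat in fixed columns of each slide, so group and column position cannot be told apart.

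The muscle label was checked with marker genes. Of 8 myotube markers with a probe, all 8 were well above background on every array, among them *Myog*, *Acta1*, *Ckm* and *Myh3*. All 5 markers of fibroblasts were too, and so were *Myf5*, *Pax7* and *Id1* among 4 genes of myoblasts, while *Id3* was above background on 1 array of each group. None of 5 markers of blood, endothelial, epithelial, liver or glial cells (*Ptprc*, *Pecam1*, *Epcam*, *Alb* and *Gfap*) reached that in all 3 arrays of any group. *Pecam1* was so on 2 GR24 arrays, 2 pinosylvin arrays and 1 resveratrol array, and *Gfap* on 1 resveratrol array.

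The myotube markers moved with GR24. Of the 8 genes 7 were lower than in the control and *Des* was not called, with a median log2 difference of -2.51 and *Myog* lowest at -5.83 (SE 0.15). Their summed linear level, in units of the array's 75th percentile, was 751 ± 55.0 (SD, n = 3) in the control, 290.4 ± 9.01 with GR24, 824 ± 30.3 with pinosylvin and 605 ± 20.0 with resveratrol. Such a sum gives most weight to probes with strong signal. With resveratrol 5 of the 8 were lower, and with pinosylvin 2 were higher. Among all tested probes, 31.5% were higher and 25.5% lower with GR24, 8.28% and 8.27% with pinosylvin, and 7.99% and 8.99% with resveratrol. The summed level of the fibroblast markers was 250.3 ± 8.54 in the control, 112 ± 5.75 with GR24, 217 ± 1.84 with pinosylvin and 217 ± 9.01 with resveratrol. With GR24, 4 of these 5 were lower and *Pdgfra* was higher. With pinosylvin 1 was higher and 2 were lower, and with resveratrol 1 was higher and 1 lower. Of the 3 tested myoblast genes, *Myf5* was lower with GR24, at -0.88 (SE 0.09), and *Id1* with pinosylvin, at -0.77 (SE 0.09). The part of these shifts in the results on the Nrf2 genes was not tested. In bulk RNA, fewer cells of a kind and less RNA per cell cannot be told apart.

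Set against the control, GR24 gave the most calls among the 8 measured genes. With GR24 6 were higher and 0 were lower, where 31.5% of all tested probes were higher and 25.5% lower. Of these, *Nfe2l2*, *Keap1* and *Mafg* are in the study's own list of genes higher with GR24 on these arrays. Their direction is therefore not independent evidence. The 6 include *Cul3* by its brighter probe, and with the mean of its probes it was not called (0.15, adjusted p = 0.0910). With resveratrol 4 were higher and 0 lower, beside 7.99% and 8.99% of all probes. With pinosylvin 2 were higher and 0 lower, beside 8.28% and 8.27%. The number of members called with pinosylvin was 1 to 3 with an array left out, 4 with the replicate number as a block and 5 with the slide as a block, and the 2010 probes that were higher became 3954 and 4031 with these blocks. They were 1250 without pinosylvin replicate 1 and 1236 without pinosylvin replicate 2, and the 1941 probes that were higher with resveratrol were 1192 without resveratrol replicate 1 and 1285 without resveratrol replicate 2. The member count with pinosylvin was 1 without control replicate 1, pinosylvin replicate 2 or pinosylvin replicate 3. The 3 comparisons share their control arrays. The median log2 difference of the 8 genes was 0.60 with GR24, 0.26 with pinosylvin and 0.40 with resveratrol, against 0.03, 0.05 and 0.01 for all tested probes.

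**Figure D1:**
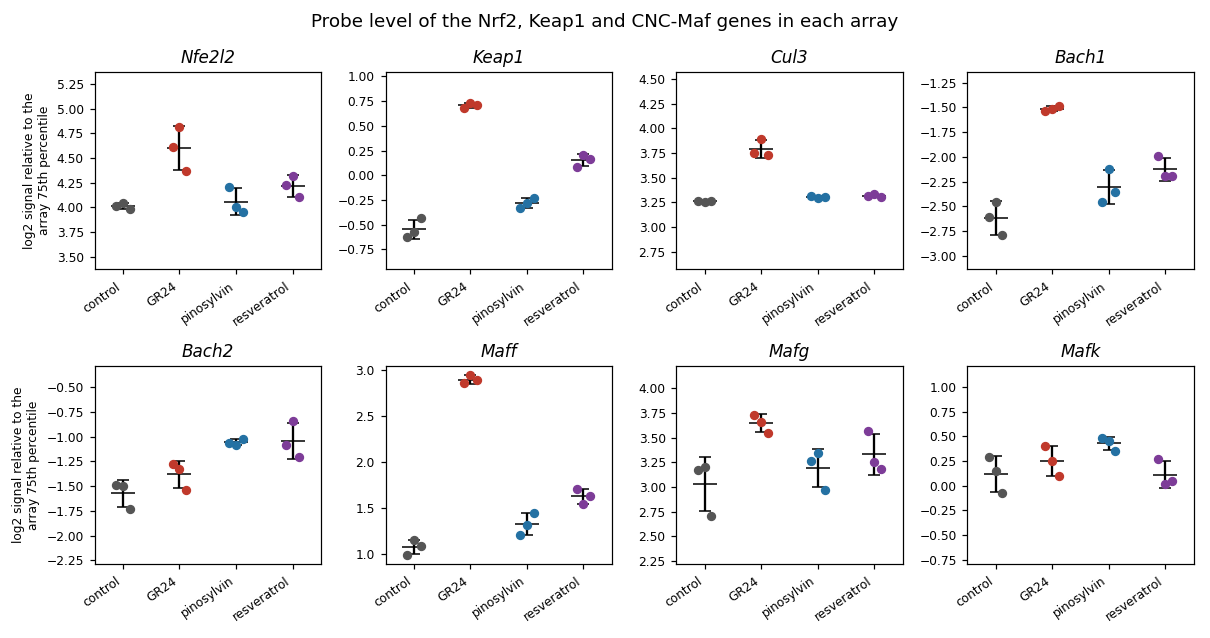
Level of each measured gene in every array, as log2 signal relative to the array's 75th percentile on the vertical axis, by treatment group on the horizontal axis, where each panel is 1 gene by its brightest probe, coloured points are the 3 arrays of a group, and black bars are the mean and SD. The *Maff* points lie between 2.85 and 2.94 with GR24 and between 0.99 and 1.15 in the control, and the *Mafk* points of GR24, resveratrol and the control overlap.

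*Nfe2l2* encodes Nrf2, the activator at the centre of the set. Its log2 level in replicates 1, 2 and 3 was 4.01, 4.05 and 3.98 in the control, 4.62, 4.82 and 4.37 with GR24, 4.21, 4.00 and 3.95 with pinosylvin, and 4.23, 4.32 and 4.11 with resveratrol. The 3 GR24 arrays lay above every other array, the resveratrol arrays lay above the control, and the pinosylvin arrays lay on both sides of the control. The GR24 mean was 4.60 ± 0.23 (SD, n = 3) against 4.02 ± 0.03 in the control, a log2 difference of 0.59 (SE 0.11, adjusted p = 0.00123). The difference was 0.69 on the slide with replicates 1 and 2 and 0.38 on the slide with replicate 3. With resveratrol the difference was 0.20 (95% interval -0.05 to 0.46, adjusted p = 0.281) and with pinosylvin 0.04 (-0.21 to 0.29, adjusted p = 0.873), and neither was called. In order of level, the control, pinosylvin and resveratrol were not called against their neighbours, and GR24 lay above resveratrol by 0.38 (SE 0.11, adjusted p = 0.0165). That last call was lost without GR24 replicate 2 (0.27, adjusted p = 0.0651), without resveratrol replicate 3 (0.33, adjusted p = 0.0635) and with only the 6 arrays of both groups (adjusted p = 0.0515), in a range over the alternatives from 0.00127 to 0.0651.

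*Keap1*, the substrate adaptor that holds Nrf2 in check, was graded across all 4 groups. Its level was -0.62, -0.58 and -0.44 in the control, 0.68, 0.74 and 0.71 with GR24, -0.33, -0.28 and -0.23 with pinosylvin, and 0.09, 0.20 and 0.17 with resveratrol. No group overlapped another, and the order was control, pinosylvin, resveratrol and GR24. GR24 raised it by 1.25 on the log2 scale (SE 0.066, adjusted p = 9.29e-08), or 2.38-fold, and resveratrol by 0.70 (SE 0.066, adjusted p = 8.12e-05), or 1.62-fold. With pinosylvin it was higher by 0.27 (SE 0.066, adjusted p = 0.0197). That call was lost under 7 of 28 alternatives, in a range of adjusted p from 0.00515 to 0.100. They include leaving out control replicate 1 (0.23, adjusted p = 0.0778), control replicate 2 (0.25, 0.0578), pinosylvin replicate 2 (0.27, 0.0606) or pinosylvin replicate 3 (0.24, 0.0616). Each neighbouring pair in the order differed, resveratrol from pinosylvin by 0.43 (SE 0.066, adjusted p = 0.002) and GR24 from resveratrol by 0.55 (SE 0.066, adjusted p = 5.33e-05).

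*Cul3* encodes the cullin scaffold of the ligase, and its 2 probes, which carry the same accession, gave different calls with GR24. At the brighter probe the level was 3.26, 3.25 and 3.27 in the control, 3.75, 3.89 and 3.73 with GR24, 3.32, 3.29 and 3.31 with pinosylvin, and 3.32, 3.33 and 3.31 with resveratrol. The GR24 arrays stood apart there, above all other arrays. At the dimmer probe the level was -0.56, -0.83 and -0.44 in the control, -0.93, -0.79 and -0.79 with GR24, -0.80, -0.62 and -0.62 with pinosylvin, and -0.56, -0.37 and -0.44 with resveratrol. Here GR24 and the control overlapped, and GR24 had the lowest mean. The brighter probe was higher with GR24 by 0.53 (SE 0.058, adjusted p = 2.09e-05), or 1.45-fold, and the dimmer was at -0.23 (95% interval -0.46 to 0.01, adjusted p = 0.0902). The change with GR24 differed between the probes by 0.76. The two-sided exact permutation p was 0.10, the smallest that 3 arrays against 3 allow, so this test could not pass 0.05 and decides nothing. With the mean of both probes as the value of the gene the difference was 0.15 (adjusted p = 0.0910), so the *Cul3* call rests on its brighter probe. At that probe the difference was 0.05 (95% interval -0.08 to 0.18) with pinosylvin and 0.06 (-0.07 to 0.19) with resveratrol, and neither stilbene was called at the dimmer probe. GR24 lay above resveratrol by 0.47 (adjusted p = 6.34e-05) at the brighter probe and was at -0.38 (adjusted p = 0.0113) against resveratrol at the dimmer.

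*Bach1*, the heme-controlled repressor that competes with Nrf2 for small Mafs, rose with GR24. At its brighter probe the level was -2.61, -2.45 and -2.79 in the control, -1.54, -1.52 and -1.49 with GR24, -2.46, -2.12 and -2.35 with pinosylvin, and -1.99, -2.19 and -2.19 with resveratrol. The GR24 arrays lay above all others, the resveratrol arrays lay above the control, and pinosylvin overlapped both the control and resveratrol. The log2 difference from the control was 1.11 (SE 0.11, adjusted p = 9.28e-06) with GR24, or 2.15-fold. It was 0.49 (SE 0.11, adjusted p = 0.0107) with resveratrol, a call lost on the slide of replicates 1 and 2 alone (0.44, adjusted p = 0.0698, the highest of a range that began at 0.00513). With pinosylvin it was 0.31 (95% interval 0.07 to 0.55, adjusted p = 0.0805), which passed without control replicate 2 (0.39, adjusted p = 0.0468) and with the slide as a block (0.31, adjusted p = 0.0445), in a range from 0.0445 to 0.264. The second probe gave 0.89, 0.43 and 0.21 for GR24, resveratrol and pinosylvin, with the same calls. The change with GR24 differed between these probes by 0.22, with an exact permutation p of 0.10, again the smallest possible. In order of level pinosylvin was called against neither neighbour, and GR24 lay above resveratrol by 0.61 (SE 0.11, adjusted p = 0.000783).

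*Bach2*, the related repressor best known from lymphocytes, followed another order. Its level was -1.49, -1.50 and -1.73 in the control, -1.27, -1.33 and -1.54 with GR24, -1.07, -1.08 and -1.02 with pinosylvin, and -1.09, -0.84 and -1.20 with resveratrol. All 6 stilbene arrays lay above all GR24 and control arrays, and the GR24 and control arrays overlapped. It was higher by 0.51 (SE 0.11, adjusted p = 0.00909) or 1.43-fold with pinosylvin and by 0.53 (SE 0.11, adjusted p = 0.00764) or 1.44-fold with resveratrol, while the stilbenes differed from each other by 0.01 (95% interval -0.23 to 0.25). With GR24 the difference was 0.19 (95% interval -0.05 to 0.43, adjusted p = 0.160), which became 0.29 (adjusted p = 0.0200) when the percentile was taken over spots. GR24 against pinosylvin was at -0.32 (adjusted p = 0.0266) and against resveratrol at -0.34 (adjusted p = 0.0240), and these calls were lost under 10 and 5 of 28 alternatives. Against pinosylvin they include leaving out GR24 replicate 3 (-0.24, adjusted p = 0.0927) or pinosylvin replicate 1 (-0.33, 0.0566), 2 (-0.33, 0.0533) or 3 (-0.31, 0.0696). Against resveratrol they include leaving out GR24 replicate 3 (-0.26, 0.0850) or resveratrol replicate 2 (-0.24, 0.0945).

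Among the small Mafs, *Maff* had the largest difference with GR24. Its level was 0.99, 1.15 and 1.09 in the control, 2.85, 2.94 and 2.88 with GR24, 1.21, 1.31 and 1.45 with pinosylvin, and 1.70, 1.54 and 1.63 with resveratrol. The groups did not overlap, and the order was that of *Keap1*. GR24 raised it by 1.81 (SE 0.078, adjusted p = 2.07e-08), or 3.51-fold, and resveratrol by 0.55 (SE 0.078, adjusted p = 0.000953), or 1.46-fold. With pinosylvin the difference was 0.25 (95% interval 0.07 to 0.42, adjusted p = 0.0578). It passed under 7 of 28 alternatives, in a range of adjusted p from 0.0305 to 0.225, among them the replicate number as a block (0.0380) and leaving out pinosylvin replicate 1 (0.30, 0.0453). Resveratrol lay above pinosylvin by 0.30 (SE 0.078, adjusted p = 0.0281), a call lost under 7 of 28 alternatives. They include leaving out pinosylvin replicate 1 (0.24, 0.0977) or 2 (0.29, 0.0889) or resveratrol replicate 1 (0.26, 0.0925) or 3 (0.30, 0.0777). GR24 lay above resveratrol by 1.27 (adjusted p = 4.74e-07).

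*Mafg*, the small Maf that is itself an ARE gene, varied between replicates. Its level was 3.17, 3.20 and 2.71 in the control, 3.73, 3.66 and 3.55 with GR24, 3.27, 3.34 and 2.97 with pinosylvin, and 3.57, 3.25 and 3.18 with resveratrol. Replicate 3, which had a slide of its own, was the lowest in every group, so experiment and slide cannot be told apart there. Only with GR24 did all 3 arrays lie above the control arrays. The difference with GR24 was 0.62 (SE 0.15, adjusted p = 0.00556), or 1.54-fold. Without a block resveratrol was at 0.30 (95% interval -0.04 to 0.65, adjusted p = 0.228) and GR24 minus resveratrol at 0.32 (-0.03 to 0.66, adjusted p = 0.115). With the replicate number as a block the adjusted p-values were 0.0417 and 0.0165, and with the slide as a block they were 0.0351 and 0.0132. GR24 minus resveratrol passed under 5 of 28 alternatives, in a range of adjusted p from 0.0132 to 0.297, the other 3 being the deposited table (0.38, 0.0289), the percentile over spots (0.43, 0.0218) and leaving out resveratrol replicate 1 (0.43, 0.0490). With pinosylvin the difference was 0.17 (95% interval -0.18 to 0.51, adjusted p = 0.546). With an array left out, it ranged from 0.0067 to 0.27, and the difference with resveratrol from 0.14 to 0.39. No neighbours in the order of control, pinosylvin, resveratrol and GR24 were called, although GR24 lay above pinosylvin by 0.45 (adjusted p = 0.0278). That call was lost without GR24 replicate 1 (0.41, 0.0836) or 2 (0.45, 0.0666), without pinosylvin replicate 3 (0.34, 0.105) and with no filter on dim probes (0.0687).

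*Mafk* was not called in any of the 6 comparisons, though some alternatives gave calls. Its level was 0.29, 0.14 and -0.07 in the control, 0.40, 0.25 and 0.10 with GR24, 0.48, 0.45 and 0.36 with pinosylvin, and 0.27, 0.02 and 0.05 with resveratrol. The pinosylvin arrays lay above the control and resveratrol arrays, and the other 3 groups overlapped. The difference from the control with GR24 was 0.13 (95% interval -0.12 to 0.38, adjusted p = 0.358), and ranged from 0.033 to 0.21 with an array left out. It was 0.31 (0.06 to 0.56, adjusted p = 0.0888) with pinosylvin and -0.01 (-0.26 to 0.24, adjusted p = 0.983) with resveratrol. With the replicate number as a block, pinosylvin passed against the control (adjusted p = 0.00708) and against both other compounds, with adjusted p-values of 0.0293 for GR24 minus pinosylvin, at -0.18, and 0.00744 for resveratrol minus pinosylvin, at -0.32. Without the block these were 0.200 and 0.0894. With the slide as a block, pinosylvin passed against the control (adjusted p = 0.0179), and so did resveratrol minus pinosylvin (adjusted p = 0.0180). GR24 minus pinosylvin passed under 1 of 28 alternatives, the replicate number as a block, and not with the slide as a block. With the percentile over spots *Mafk* passed for pinosylvin against the control (0.32, adjusted p = 0.0382), resveratrol minus pinosylvin (-0.34, 0.0341) and GR24 minus resveratrol (0.25, 0.0457), the last of which was with the percentile over probes at 0.14 (95% interval -0.11 to 0.39, adjusted p = 0.346). With normexp and quantile normalization resveratrol minus pinosylvin passed (-0.31, 0.0484).

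**Figure D2:**
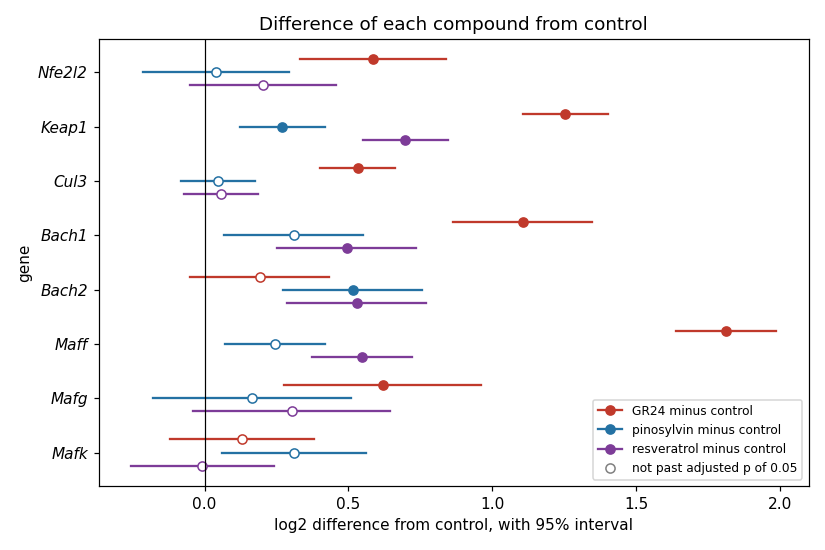
Log2 difference of each compound from the control on the horizontal axis for the 8 measured genes on the vertical axis, each by its brightest probe, where points are fitted differences, lines are 95% intervals that are not adjusted over probes, and open points did not pass an adjusted p of 0.05. GR24 reaches 1.81 for *Maff* and 1.25 for *Keap1*, and for *Bach2* the stilbenes, at 0.51 and 0.53, lie above GR24, at 0.19.

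Between the compounds at the same dose and time, 3 pairs were compared. GR24 was higher than pinosylvin for 6 of the 8 genes and lower for 1, *Bach2*, where 29.6% of all tested probes were higher and 26.8% lower. GR24 was higher than resveratrol for 5 and lower for 1, again *Bach2*, beside 27.4% and 23.9%. Both counts of higher genes include *Cul3* by its brighter probe. Its dimmer probe was called lower with GR24 than with resveratrol (-0.38, adjusted p = 0.0113), the opposite direction. With the mean of its probes *Cul3* was not called against pinosylvin (0.16, adjusted p = 0.0716) or resveratrol (0.05, adjusted p = 0.626). Resveratrol was higher than pinosylvin for 2, *Keap1* and *Maff*, and lower for 0, beside 6.85% and 7.68%. With the replicate number as a block each pair gained a call. *Mafk* was then lower with GR24 (adjusted p = 0.0293) and with resveratrol (adjusted p = 0.00744) than with pinosylvin. *Mafg* was then higher with GR24 than with resveratrol (adjusted p = 0.0165). The call of *Mafk* between GR24 and pinosylvin was not gained with the slide as a block. For *Nfe2l2* resveratrol minus pinosylvin was 0.16 (95% interval -0.09 to 0.42) and for *Bach1* 0.18 (-0.06 to 0.42). For *Mafg* it was 0.14 (-0.21 to 0.48) and for *Cul3* 0.01 (-0.12 to 0.14). With an array left out, *Bach1* ranged from 0.11 to 0.28, *Mafg* from 0.020 to 0.21 and *Cul3* from 0.0054 to 0.019.

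The genes whose level was most like that of a member over the 12 arrays were ranked among 9820 named genes by Pearson's r, as a description. The arrays fall into 4 groups, so a high r mostly restates the order of the groups. *Keap1* was followed by *Blvrb* (r = 0.992), *Gsta5* (0.989) and *Cat* (0.989), enzymes of heme breakdown, conjugation and peroxide removal. *Nfe2l2* was closest to *Slc35a4* (0.991), *Trmt112* (0.983) and *Selenot* (0.981). *Maff* was closest to *Klf4* (0.990), *Slc6a9* (0.990) and *Rab20* (0.987), *Bach1* to *Trim25* (0.988), *Mtg2* (0.984) and *Cryl1* (0.983), and *Cul3* to *Ptrh2* (0.998) and *Tlr4* (0.994). *Mafg* was closest to *Limk2* (0.973), *Dohh* (0.965) and *Dph1* (0.965), *Mafk* to *Mrrf* (0.950), *Cog2* (0.938) and *Nr4a1* (0.931), and *Bach2* to *Foxn3* (0.923), *Slc6a6* (0.919) and *Swsap1* (0.917).

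Other genes that act on or with these factors were read from fixed lists, each gene by its brightest tested probe. All list counts are from the fit without a block, and none is given for the fits with a block. A count of 0 therefore holds for that fit only. Of all tested probes, 31.5% were higher and 25.5% lower with GR24, 8.28% and 8.27% with pinosylvin, and 7.99% and 8.99% with resveratrol. Of 11 measured genes of the ligase machinery that turns Nrf2 over, 8 were higher and 0 lower with GR24 (median log2 difference 0.41), and 0 were called with either stilbene (medians 0.07 and 0.02). *Rbx1*, the RING subunit, was higher by 0.61 (SE 0.10, adjusted p = 0.000334) with GR24, while its other probe, of the same accession, was at 0.25 (adjusted p = 0.0633), not called. *Cops5*, which removes Nedd8 from cullins, was higher by 0.47 (SE 0.085, adjusted p = 0.000792). *Gsk3b*, a kinase that primes Nrf2 for another ligase, was higher by 0.51 with GR24, while its other 3 tested probes gave 0.19 and 0.16, not called, and 3.52, called. The last of these was also called with pinosylvin, at 0.45 (adjusted p = 0.0048). Among 24 listed genes with several tested probes, the probes gave different calls for 6 with GR24, 5 with pinosylvin and 4 with resveratrol, and calls in opposite directions for 0, so the counts of the lists depend on the probe that stands for a gene.

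Of 7 proteins that bind Keap1, 2 were higher and 1 lower with GR24, beside 31.5% and 25.5% of all tested probes. With each stilbene 1 was higher and 2 lower, beside 8.28% and 8.27% with pinosylvin and 7.99% and 8.99% with resveratrol. *Sqstm1*, the autophagy receptor p62, was higher with all 3 compounds, by 0.95 (SE 0.068) with GR24, 0.51 (SE 0.068) with pinosylvin and 0.76 (SE 0.068) with resveratrol. A probe for its other accession was higher by 3.49 (SE 0.075, adjusted p = 2.82e-10) with GR24 and was at -0.19 (adjusted p = 0.126) with pinosylvin and 0.01 (adjusted p = 0.969) with resveratrol. *Mcm3*, a replication helicase subunit, was lower at its brightest probe with all 3 compounds, at -1.58, -0.67 and -1.12 with GR24, pinosylvin and resveratrol. Its other probe, of the same accession, was lower with GR24, at -0.61 (adjusted p = 0.0161), and was not called with pinosylvin, at -0.14 (adjusted p = 0.688), or resveratrol, at -0.60 (adjusted p = 0.0514), so the calls with the stilbenes rest on 1 probe. *Palb2*, a DNA repair protein, was lower with pinosylvin at -0.89 (SE 0.082, adjusted p = 4.67e-05) and with resveratrol at -0.41 (SE 0.082, adjusted p = 0.00696), and was at 0.04 with GR24.

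Of 7 measured coregulators that bind Nrf2, 3 were higher and 0 lower with GR24, beside 31.5% and 25.5% of all tested probes. With either stilbene 0 were called, beside 8.28% and 8.27% with pinosylvin and 7.99% and 8.99% with resveratrol. The other probe of *Crebbp* was called with GR24, at 0.44 (adjusted p = 0.00647), and with pinosylvin, at 0.40 (adjusted p = 0.0348), although its brightest probe was not. The 3 genes were the retinoid receptors *Rara*, at 0.94 (SE 0.10, adjusted p = 1.27e-05), and *Rxra*, at 0.83 (SE 0.14, adjusted p = 0.000498), and the chromatin remodeller *Smarca4*, at 0.30 (adjusted p = 0.0438). Of 7 genes that process or turn over Nrf1, 4 were higher and 1 lower with GR24, beside 31.5% and 25.5% of all tested probes. *Sel1l*, of the retrotranslocation complex, was higher by 1.11 (SE 0.11, adjusted p = 1e-05), and *Fbxw7*, a ligase subunit, was lower at -1.24 (SE 0.088, adjusted p = 8.82e-07). With pinosylvin *Vcp* was higher, at 0.31 (adjusted p = 0.0498), and with resveratrol 0 were called. The other probe of *Fbxw7*, of the same accession, was called lower with pinosylvin, at -0.34 (adjusted p = 0.00197), and with resveratrol, at -0.18 (adjusted p = 0.0478).

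Of the other CNC and Maf factors, *Maf* was lower with GR24 at -1.62 (SE 0.092) and higher with pinosylvin at 0.67 (SE 0.092), and a probe for its other accession had the same calls, at -0.65 (SE 0.19) and 0.87 (SE 0.19). *Nfe2l3* was lower with GR24 at -0.38 (SE 0.12), and *Nfe2* and *Nrl* were too dim to be tested.

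Genes with known AREs were also read from a list. Many of these genes, with *Nfe2l2*, *Keap1*, *Mafg*, *Rxra* and *Sqstm1*, are in the study's own list chosen on these arrays, so their direction is not independent evidence. Of 32 measured genes, 30 were higher and 1 lower with GR24 (median 1.45). With resveratrol 27 were higher and 0 lower (median 0.80), and with pinosylvin 15 were higher and 0 lower (median 0.30). The shares of all tested probes were 31.5% and 25.5% with GR24, 7.99% and 8.99% with resveratrol, and 8.28% and 8.27% with pinosylvin. *Gsta1*, a glutathione transferase, was higher by 4.58, 3.35 and 2.79 with GR24, resveratrol and pinosylvin, each with SE 0.094. *Hmox1*, the heme oxygenase that Bach1 represses, was higher by 4.08, 1.54 and 0.86 (SE 0.13). *Ptgr1*, a reductase of reactive lipids, was higher by 3.39 (SE 0.16) with GR24 and 0.98 (SE 0.16) with resveratrol, and was at 0.33 with pinosylvin, not called. *Osgin1*, a growth inhibitor, was higher by 2.20 with resveratrol, 1.75 with GR24 and 0.87 with pinosylvin, and GR24 minus resveratrol was -0.45 (SE 0.15, adjusted p = 0.0309). *Slc40a1*, the iron exporter ferroportin, was the gene that was lower with GR24, at -1.31 (SE 0.11, adjusted p = 2.92e-06). *Ephx1* was not called with GR24, and *Gclm* was too dim to be tested.

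The stilbenes differed for most of this list. Of the 32 genes 26 were higher with resveratrol than with pinosylvin and 0 lower, beside 6.85% and 7.68% of all tested probes, and the median difference was 0.62, against -0.02 for all tested probes. *Nqo1*, the quinone reductase, was higher by 1.70 (SE 0.069, adjusted p = 2.6e-06), *Srxn1*, which repairs peroxiredoxins, by 1.49 (SE 0.13, adjusted p = 5.82e-05), and *Osgin1* by 1.33 (SE 0.15, adjusted p = 0.000324). GR24 was higher than pinosylvin for 29 and lower for 1, beside 29.6% and 26.8%. It was higher than resveratrol for 24 and lower for 2, beside 27.4% and 23.9%. The myotube markers moved in the same comparisons. Of the 8 genes, 7 were lower and 0 higher with resveratrol than with pinosylvin (median -0.48). With GR24 8 were lower than with pinosylvin and 7 were lower than with resveratrol. The part of these shifts in the results on the list was not tested.

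The 31 proteasome subunit genes, whose transcription Nrf1 is known to drive, were higher with GR24 for 26 and lower for 0 (median 0.54). Of all tested probes 31.5% were higher and 25.5% lower with GR24. With resveratrol 5 were higher and 0 lower (median 0.15), beside 7.99% and 8.99% of all tested probes. With pinosylvin 0 were called (median 0.10), beside 8.28% and 8.27%. *Psmd11* was higher by 0.88 (SE 0.11), *Psmd3* by 0.80 (SE 0.08) and *Psmd12* by 0.76 (SE 0.11) with GR24.

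Promoters were searched for the element these factors bind. The sequences are from RefSeq, build GRCr8, with 250 bases before and 50 after each gene start, and 8 of the 9 members had at least 1, with 10 promoters in all. The ARE core TGACNNNGC was searched on both strands, and 12.1% of 33469 promoters held it. It was in 2 of the 10 member promoters, those of *Nfe2l2* and *Mafk*. The *Nfe2l2* match, TGACGCCGC, lay at bases 39 to 47 after the start, and the *Mafk* match began 41 bases before the start. The promoters of *Keap1*, *Bach1*, *Bach2*, *Maff*, *Mafg* and *Nfe2l1* held no match in this window, and *Cul3* had no promoter in the reference. Of 29 promoters of the ARE genes 9 held the core, and 4 held the narrower TGACTCAGC, which 0.415% of all promoters held. A match is a description and not evidence of binding. The bases before the start are shown for *Mafk* and for the 4 ARE genes with the narrower motif, with matches to the core on either strand in capitals. *Mafk* lies at chr12:19959193-19959442 on the minus strand, *Gstp1* at chr1:210769706-210769955 on the minus strand, *Prdx1* at chr5:135383656-135383905 on the plus strand, *Me1* at chr8:96540245-96540494 on the minus strand and *Ephx1* at chr13:95263118-95263367 on the minus strand.

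Mafk: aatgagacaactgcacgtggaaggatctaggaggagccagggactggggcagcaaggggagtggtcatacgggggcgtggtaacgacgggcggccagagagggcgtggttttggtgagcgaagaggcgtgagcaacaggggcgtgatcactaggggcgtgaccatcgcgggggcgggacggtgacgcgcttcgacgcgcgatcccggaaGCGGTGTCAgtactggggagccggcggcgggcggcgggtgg

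Gstp1: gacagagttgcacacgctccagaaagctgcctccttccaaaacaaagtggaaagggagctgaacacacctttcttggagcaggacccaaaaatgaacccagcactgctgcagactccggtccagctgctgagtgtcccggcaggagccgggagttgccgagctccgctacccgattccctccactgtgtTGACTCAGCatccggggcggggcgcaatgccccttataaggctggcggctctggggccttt

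Prdx1: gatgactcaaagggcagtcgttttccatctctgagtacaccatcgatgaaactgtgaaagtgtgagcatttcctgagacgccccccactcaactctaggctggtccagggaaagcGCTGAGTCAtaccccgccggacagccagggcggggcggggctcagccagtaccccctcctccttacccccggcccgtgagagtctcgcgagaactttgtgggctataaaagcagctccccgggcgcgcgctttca

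Me1: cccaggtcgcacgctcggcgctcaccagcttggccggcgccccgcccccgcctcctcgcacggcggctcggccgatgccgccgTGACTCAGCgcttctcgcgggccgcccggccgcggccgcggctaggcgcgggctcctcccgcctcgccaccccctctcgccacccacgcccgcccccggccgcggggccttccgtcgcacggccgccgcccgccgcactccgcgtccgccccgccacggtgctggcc

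Ephx1: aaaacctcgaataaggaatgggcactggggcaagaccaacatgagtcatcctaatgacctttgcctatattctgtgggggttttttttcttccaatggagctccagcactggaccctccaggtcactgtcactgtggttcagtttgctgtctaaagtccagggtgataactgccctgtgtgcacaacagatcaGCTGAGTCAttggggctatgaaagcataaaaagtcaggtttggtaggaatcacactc

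Of these, *Gstp1* was higher with all 3 compounds, by 2.36, 1.40 and 1.91 with GR24, pinosylvin and resveratrol, and so was *Me1*, by 0.73, 0.33 and 0.61. *Prdx1* was higher with GR24, by 1.23, and with resveratrol, by 0.74, and *Ephx1* was not called with any of the compounds.

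These results have limits. They describe mRNA in bulk samples of 1 cell line at 1 dose and 1 time, with 3 arrays per group from a single batch of cells, and they do not show the amount, location or activity of the Nrf2, Keap1, Bach or Maf proteins. No value could be given for *Nfe2l1*, since no probe matched it by accession and 46.3% of probes were named that way, and *Cul3* rests on probes that disagree. The markers of myotubes changed with GR24 in the same samples, and of 8 such genes 5 were lower with resveratrol and 2 higher with pinosylvin. Scaling to a percentile makes each level relative to the other RNA of the sample. A difference that was not called is not shown to be absent.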

How the data were processed

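The authors deposited the scanner output of 12 one-colour Agilent arrays, made per the file headers with Feature Extraction 12.0.0.7, which holds an intensity per spot with background subtracted within the array and no normalization between arrays. They also deposited a series table of 25848 probes, whose columns hold log2 values whose correlation with the log2 median spot signals of the matching array was 0.9993 to 0.9997. Its median per array was 9.21 to 9.24, its background correction, normalization and filter are not stated, and it served as an alternative.

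From the processed signal, control spots were removed, outlier-marked spots were treated as missing, and log2 signals were averaged over the spots of a probe and shifted by the 75th percentile of the array's probes. A probe counted as well above background on an array if at least 50% of its spots did. Values with the percentile over spots, and with a rule that all spots of a probe be above background (24244 probes tested), had been seen when the present settings were chosen, to process the arrays like an earlier analysis of these data. Both first settings are given as alternatives chosen after the data were seen. The members and gene lists were chosen with earlier results of these data known.

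limma 3.58.1 in R 4.3.3 (with the package data.table, 1.17.8) fitted all 12 arrays at once (group means, eBayes), p-values of each of 6 contrasts were adjusted by Benjamini and Hochberg's method across the 24279 tested probes, and the code was tested on simulated data. RefSeq accessions named 21109 of 45598 probes (46.3%) through a table of assembly GRCr8. Each gene is represented by the brightest of its tested probes, by the mean of 12 arrays. By a rule fixed in advance, the text could name the members, up to 3 genes of each list in each direction with the largest change from the control past the threshold, any gene of a list under 10 genes, and for each member the 3 genes with the highest r. Genes named outside it, such as *Srxn1*, *Prdx1* and *Me1*, were chosen after their values were seen. No probe matched *Nfe2l1*, *Mafa*, *Nae1*, *Fbxw11*, *Ep300*, *Ncoa3*, *Hcfc1* or *Mymk*.

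Slide 1 held replicates 1 and 2 of every group and slide 2 held replicate 3. The correlation of deviations from the group means was 0.19 to 0.74 over 18 pairs of arrays with the same number. It was -0.66 to 0.48 for 36 pairs with different numbers. Of 12 arrays, 10 correlated best with their own number. Replicate 3 was alone on slide 2, so for it a match by number cannot be told apart from a match by slide. Within slide 1 the ranges overlapped, at 0.19 to 0.47 for the same number and 0.22 to 0.48 for different numbers. Much of the contrast is therefore between the slides. The fit with the replicate number as a block was an alternative, since the plan fixed a fit without it. Other alternatives were quantile normalization, normexp (offset 50) with either scaling, the deposited table, no filter or a stricter filter on dim probes, the percentile over probes above background, only the 6 arrays compared, the slide as a block, slide 1 alone, eBayes with trend and robust settings, outlier spots kept, the mean over probes of a gene, and each array left out. The plan named the mean signal for normexp, and the median signal was used because the files have no column of mean signals.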

Additional observations from a re-analysis of the deposited data

How the results depend on the processing

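Over 28 alternatives each, the member differences kept their direction and side of the threshold 1268 times, lost the call 40 times, gained it 26 times and turned sign 10 times. The calls of *Nfe2l2*, *Keap1*, *Bach1*, *Maff* and *Mafg* with GR24, of *Bach2* with both stilbenes, and of *Keap1* and *Maff* with resveratrol held under each of the 28. With no filter on dim probes, pinosylvin had 1 member called and 1026 probes higher, resveratrol 1070 probes higher, and resveratrol minus pinosylvin 1 member, 903 probes higher and 1072 lower. With only the 6 arrays compared, pinosylvin had 1 member and 1083 probes higher, resveratrol 1215 higher, and resveratrol minus pinosylvin 1 member. With the replicate block, pinosylvin had 4 members and 3954 probes higher, resveratrol 3419 higher and 3350 lower, and resveratrol minus pinosylvin 2816 and 3507. With the slide as a block, pinosylvin had 5 members, 4031 probes higher and 3043 lower, resveratrol 3524 and 3345, and resveratrol minus pinosylvin 2879 and 3564. On slide 1 alone resveratrol minus pinosylvin had 1 member. Leaving out each array, pinosylvin had 1 to 3 members, 1236 to 2048 probes higher and 1530 to 2044 lower, resveratrol 4 members, 1192 to 2063 higher and 1546 to 2270 lower, and resveratrol minus pinosylvin 1 to 2 members, 1030 to 1711 higher and 1086 to 1988 lower. The signs that turned were of differences that were not called. *Cul3* was at -0.012 with pinosylvin by the mean over probes, and in resveratrol minus pinosylvin at -0.021 in the deposited table and -0.0083 with the percentile over spots, where *Bach2* was at -0.0067. Over the left-out arrays, *Nfe2l2* with pinosylvin ranged from -0.036 to 0.092, *Mafk* with resveratrol from -0.10 to 0.077 and *Bach2* in resveratrol minus pinosylvin from -0.087 to 0.092. The percentile over spots, chosen after the data were seen, moved the median of all probes in GR24 minus resveratrol by 0.11 and the share of calls that are higher from 53.4% to 64.1%. The cause was not tested. The share of spots well above background, 58.0% to 64.3% per array, limits how many probes can be tested.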
